A study of Schizosaccharomyces pombe with 2 samples.

Results

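The fission yeast (Schizosaccharomyces pombe) centromeres carry tRNA genes, and the binding of condensin at these genes in mitosis is described here. The members were all genes annotated as tRNA inside the 3 centromeres, stretches of 39194 bp on chromosome I, 51487 bp on II and 78172 bp on III, which gave 55 genes, 7 in centromere I, 27 in centromere II and 21 in centromere III, of 171 tRNA genes on the 3 chromosomes. The measurement was chromatin immunoprecipitation and sequencing (ChIP-seq) of the condensin subunit Cnd2, a kleisin, carrying an HA tag. An anti-HA ChIP library was set against an input library, both from strain YUK421 Cnd2-HA held in mitosis with 5 µg/mL thiamine and fixed with 0.5% formaldehyde for 30 min at 25 °C. The ChIP library kept 25933013 fragments and the input 54272630 after duplicates were removed. Each group has 1 library, so the values lack a replicate check and the differences below were not tested. Intervals cover counting error only, and the genes of a cluster are not independent of each other.

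Condensin is the ring-shaped protein complex that compacts chromosomes for mitosis. A fission yeast centromere has a central core, where the kinetochore forms, set between inverted repeats and then outer repeats packed in heterochromatin. The tRNA genes among these repeats are known as barriers to the spread of heterochromatin. RNA polymerase III reads tRNA genes from promoter boxes inside the gene, bound by TFIIIC, which places TFIIIB just before the gene's start.

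The bases before the genes are shown first because the Cnd2 summits, the points of highest ChIP coverage in each peak of the authors' list, lay at the starts of these genes. The 60 bases before the gene follow for the tRNA genes nearest to a summit, from RefSeq on the build ASM294v3, 5′ to 3′ on the strand the gene reads (for SPBTRNAASP.05, the strand its copies read). Capitals mark TATAA on either strand, and overlapping matches run together. SPCTRNALYS.11, with the same 60 bases as SPCTRNALYS.10, is left out.
SPATRNAPHE.02 (I:3752407-3752466, minus strand): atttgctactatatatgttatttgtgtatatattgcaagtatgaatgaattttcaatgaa
SPBTRNAASP.05 (II:1602418-1602477, minus strand): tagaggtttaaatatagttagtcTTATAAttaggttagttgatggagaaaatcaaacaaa
SPBTRNAILE.07 (II:1630123-1630182, minus strand): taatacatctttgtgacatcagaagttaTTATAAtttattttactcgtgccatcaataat
SPBTRNAALA.11 (II:1645645-1645704, minus strand): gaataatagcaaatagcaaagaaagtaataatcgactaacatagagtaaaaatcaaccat
SPCTRNAVAL.12 (III:1065861-1065920, minus strand): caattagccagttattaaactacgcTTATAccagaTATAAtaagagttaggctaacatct
SPCTRNAARG.10 (III:1067165-1067224, minus strand): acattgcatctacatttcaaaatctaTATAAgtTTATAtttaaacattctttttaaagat
SPCTRNAASP.05 (III:1067969-1068028, plus strand): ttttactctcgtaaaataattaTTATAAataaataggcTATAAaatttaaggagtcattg
SPCTRNALEU.11 (III:1069106-1069165, plus strand): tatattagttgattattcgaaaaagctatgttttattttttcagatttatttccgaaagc
SPCTRNALYS.10 (III:1071033-1071092, plus strand): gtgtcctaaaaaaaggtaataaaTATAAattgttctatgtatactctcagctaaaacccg
SPCTRNALEU.12 (III:1096186-1096245, minus strand): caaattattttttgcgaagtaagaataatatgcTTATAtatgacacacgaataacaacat
SPCTRNAPHE.05 (III:1142265-1142324, minus strand): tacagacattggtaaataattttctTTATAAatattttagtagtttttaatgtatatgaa

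Among the 12 genes nearest to a summit 9 had TATAA in these 60 bases, as had 22 of the 43 other centromeric tRNA genes. Over all 55 the share was 56.4%, against 57.8% of the 116 tRNA genes on the chromosome arms and 17.4% of all windows of 60 bases on the chromosomes. The 60 bases were not all distinct, with 11 sequences among the 12 genes, 27 among the 43 and 34 among the 55. Some sequences thus occurred in both the 12 and the 43. The motif was chosen after the data were seen.

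Most of the genes have an exact copy among the 55, and the sequences below stand for 31 of the 55. Not all sequences with a copy near a summit are printed. An arginine sequence of 5 genes, 2 of them near a summit, is left out, as are sequences that occurred once. Each sequence printed had at least 1 copy near a summit. The leucine, alanine, valine and isoleucine sequences and that of SPCTRNAASP.05 also had copies that were not, whereas both phenylalanine genes and both genes of the lysine sequence were near one. Capitals mark the B box, searched on both strands as GGTTCGA followed directly by NNCC, where N is any base.
SPCTRNALEU.12 (III:1096085-1096185, minus strand; leucine, 4 centromeric genes): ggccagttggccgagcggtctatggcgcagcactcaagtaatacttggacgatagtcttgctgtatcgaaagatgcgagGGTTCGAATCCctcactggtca
SPATRNAALA.04 (I:3765008-3765081, minus strand; alanine, 7 centromeric genes): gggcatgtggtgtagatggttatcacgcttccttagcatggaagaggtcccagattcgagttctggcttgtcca
SPBTRNAVAL.05 (II:1600967-1601049, minus strand; valine, 7 centromeric genes): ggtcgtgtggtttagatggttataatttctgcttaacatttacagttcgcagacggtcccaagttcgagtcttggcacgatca
SPATRNAILE.03 (I:3768290-3768363, plus strand; isoleucine, 6 centromeric genes): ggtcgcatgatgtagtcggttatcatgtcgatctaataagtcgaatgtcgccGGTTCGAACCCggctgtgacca
SPATRNAPHE.02 (I:3752334-3752406, minus strand; phenylalanine, 2 centromeric genes): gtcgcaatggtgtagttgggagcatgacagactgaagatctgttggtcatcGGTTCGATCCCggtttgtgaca
SPCTRNALYS.10 (III:1071093-1071175, plus strand; lysine, 2 centromeric genes): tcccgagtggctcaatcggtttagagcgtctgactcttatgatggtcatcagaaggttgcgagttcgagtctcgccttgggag
SPCTRNAASP.05 (III:1068029-1068099, plus strand; 3 centromeric genes): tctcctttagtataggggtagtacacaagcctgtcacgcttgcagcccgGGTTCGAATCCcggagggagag

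As annotated the 55 genes had 20 distinct sequences, of which 14 were shared by 2 or more members and 6 occurred once in the centromeres. An identical gene also stood on an arm for 39 of the 55. SPBTRNAASP.05 is annotated on the plus strand but is the exact reverse complement of SPCTRNAASP.05, so 19 sequences remain when the strand is ignored. The product annotated for both is an asparagine tRNA, whereas their names say ASP. The B box was found on the gene strand in 30 of the 55 centromeric genes (54.5%) and in 66 of the 116 arm genes (56.9%), and in 0.0305% of all windows of 74 bases, the median length of the 55 genes. The A box, spelled as TNGCNN followed directly by AGNNGG, was found in 2 of 55 and 8 of 116, and in 0.173% of windows. Neither motif was found in 24 centromeric and 47 arm genes, and no gene had overlapping matches. Only these exact spellings were counted, so a gene without a match may hold a variant of the box. On the opposite strand a match occurred in 1 centromeric and 1 arm gene. An intron was annotated in 18 of the 55 and in 26 of the 116.

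All 55 centromeric tRNA genes lay under Cnd2 peaks, but few had a summit of their own. The list gives 1 summit per peak, so among many genes under a wide peak only a few could be near its summit. The counts near a summit thus also reflect how many genes share a peak. Each gene lay wholly inside 1 peak, and 14 peaks held all 55 (exact 95% interval of the share 93.5 to 100%). On the arms 110 of 116 tRNA genes (94.8%) overlapped a peak, as did 96.5% of all tRNA genes and 11.3% of all annotated genes. Overlap was also common for the other annotated genes of the centromeres, at 87.1%. Peaks covered 79.1%, 76.6% and 47.0% of the stretches on I, II and III. Near a summit, meaning that it was in the gene or at most 500 bp away, were 17 of the 55 (30.9%, 19.1 to 44.8), against 110 of 116 on the arms (94.8%, 89.1 to 98.1), 74.3% of all tRNA genes and 13.2% of all 12606 annotated genes. Distance to the nearest summit had a median of 1618 bp and a maximum of 6003 bp for the 55, against a median of 2 bp on the arms. The 6 arm genes without a summit lay 7117 to 22433 bp from one and under no peak, whereas the 38 centromeric ones all lay under a peak.

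**Figure D1:**
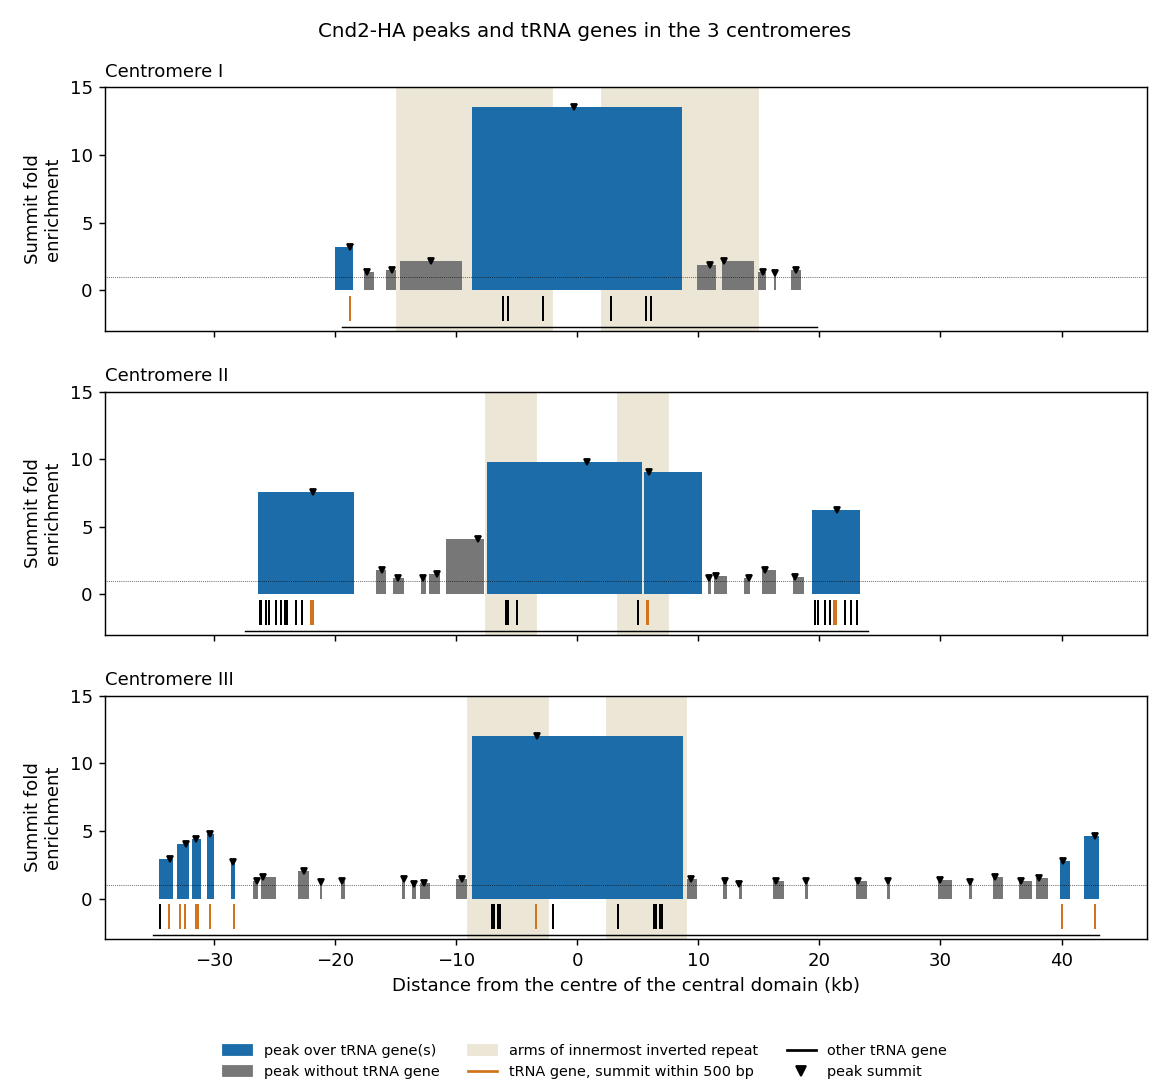
Cnd2 peaks (bars, from peak start to end, drawn at the fold enrichment of their summit and not as a coverage profile) and tRNA genes (ticks) against the distance from the centre of the central domain, in kb. The line under the ticks is the stretch that chose the genes. Every tick lies under a blue bar, and 5 wide bars cover 42 of the 55 genes.

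Where a summit was near a centromeric tRNA gene, it lay at the gene's 5′ end. There were 12 such summits, and their offsets from the 5′ end of the nearest tRNA gene ran from 13 bp before to 33 bp after it, with a median of -0.5 bp. The 104 summits near arm tRNA genes had offsets from -16 to 39 bp and a median of 0. The ranges overlapped almost fully. The centromeric offsets take SPBTRNAASP.05 on the strand its copies read, where the summit was 1 bp from the 5′ end. On its annotated strand the offset was 69 bp, and 11 of the 12 summits were then within 50 bp of a 5′ end. Among the wide peaks, the summit of the 17438 bp peak of centromere III was 10 bp inside the leucine gene SPCTRNALEU.12, and that of the 4772 bp peak of centromere II was 5 bp before the isoleucine gene SPBTRNAILE.07.

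**Figure D2:**
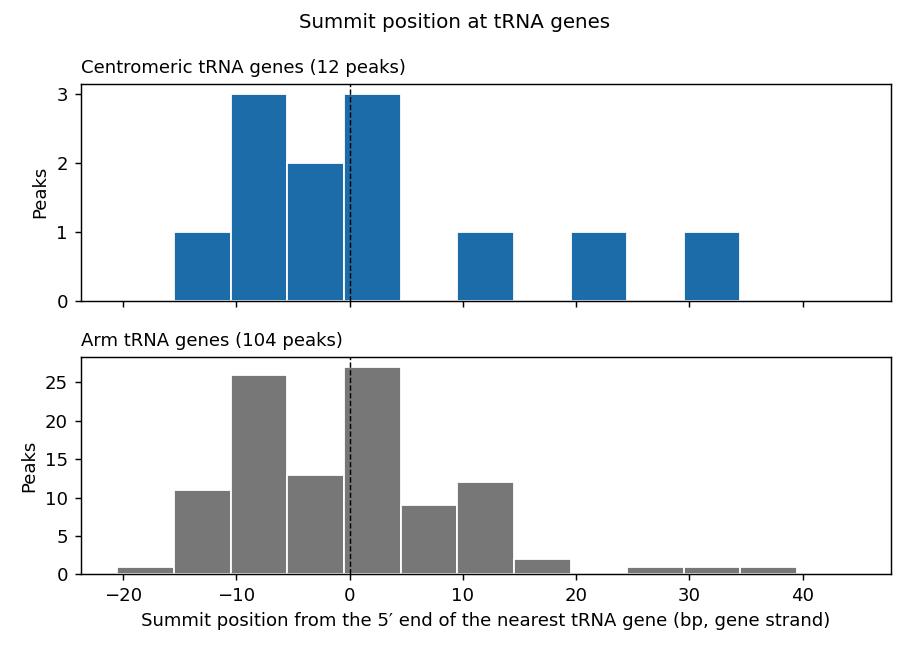
Number of peaks (vertical axis) by the position of the summit from the 5′ end of the nearest tRNA gene, in bp on the gene strand, for 12 centromeric peaks above and 104 arm peaks below. The dashed line is the 5′ end, and all summits stand between -16 and 39 bp.

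By fold enrichment, the peaks that held tRNA genes were the strong peaks of the centromeres. Fold enrichment, the ratio of ChIP coverage to local background as the authors' caller gave it, had a median of 4.68 at the 14 peaks with a tRNA gene (range 2.73 to 13.5) and of 1.34 at the 39 centromeric peaks without one (1.09 to 4.07). Of the 39, 1 reached 4.07 and the next was 2.18, so that all but 1 lay below the weakest of the 14. The 104 peaks with an arm tRNA gene had a median of 2.78 (1.65 to 9.62), the highest at SPATRNAVAL.04, and the 664 peaks of the list 1.72. The background at the summit, recovered from coverage and fold, also differed. Its median was 506 scaled fragments at the 14 peaks, 808 at the 39, 348 at the arm tRNA peaks and 413 at the other 507 arm peaks, with a genome mean of 429. A higher background lowers the fold at a given coverage, and its part in these differences was not tested. ChIP coverage alone, as pileup at the summit, had medians of 1802.5 at the 14, 1139 at the 39 and 987.5 at the arm tRNA peaks. Its range was 1172 to 9307 at the 14 and 832 to 3141 at the 39. By coverage these 2 sets overlapped, and the near separation held for fold only.

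**Figure D3:**
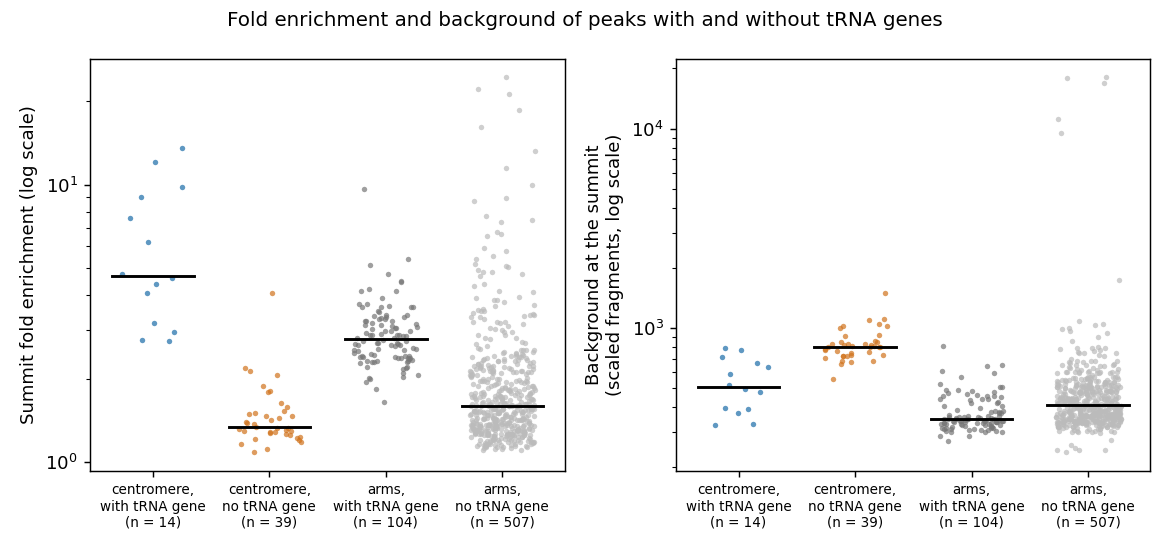
Fold enrichment at the summit (left) and background at the summit in scaled fragments (right), both on log scales, one point per peak, with horizontal lines at the medians. The 14 centromeric peaks with tRNA genes have the highest median fold of the 4 sets, 4.68, and the 39 without have the highest median background, 808.

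The exception without a tRNA gene was a 3160 bp peak in centromere II (1613340 to 1616499, 4.07-fold), with its summit in the non-coding RNA gene SPNCRNA.5261 and 2292 bp from the nearest tRNA gene, SPBTRNAILE.06. It ended 247 bp before the central peak of that centromere began. The peak lay at the inner end of the left copy of an inverted repeat (11723 bp, 99.9% identity). The inner end of the right copy lay under the 4772 bp peak, which held tRNA genes.

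Wide peaks over several tRNA genes were found in the centromeres and at no arm tRNA gene. In the centromeres 5 peaks held 3 or more tRNA genes each, together 42 of the 55, and were 3951 to 17438 bp wide. Another 4 peaks held 2 genes and 5 held 1. On the arms no peak held more than 2, with 98 holding 1 and 6 holding 2. Median peak width was 1308.5 bp for the 14 centromeric peaks and 346.5 bp for the 104 arm peaks. The centromeric genes also stood closer together. Chained at gaps under 2000 bp, the 55 genes formed 16 clusters of up to 12, 6 of them single genes, while the 116 arm genes formed 107 of up to 3, with 99 single.

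**Figure D4:**
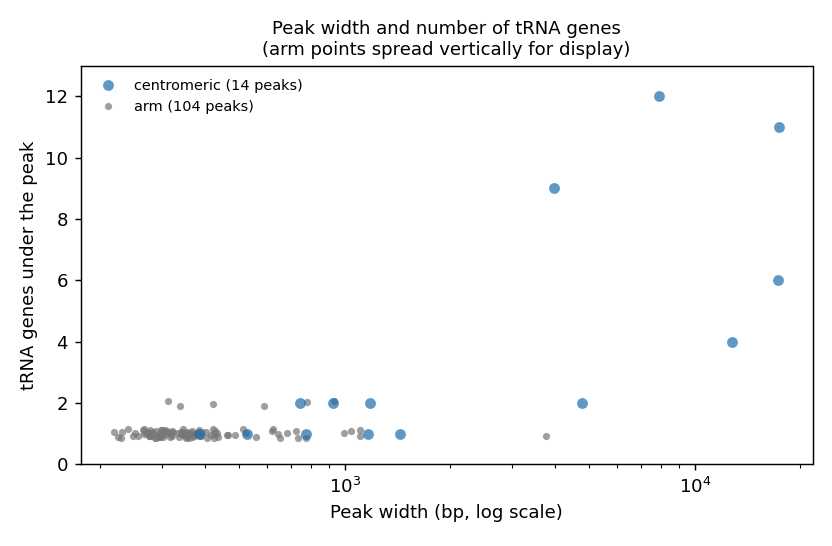
Number of tRNA genes under each peak (vertical axis) against peak width in bp (log scale), for 14 centromeric and 104 arm peaks. The 5 centromeric peaks with 4 to 12 genes are 3951 to 17438 bp wide, and every arm peak has 1 or 2 genes.

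The central domain, taken as the innermost inverted repeat pair and all between it, held 23 of the 55 genes under the strongest peaks. The repeat arms were 12844 bp long in centromere I, where the inverted repeat ran on unbroken, 4136 bp in II and 6585 bp in III. So defined, the domain was 29795 bp in I, against 15074 and 18023 bp in II and III. In I it reached far past its outermost tRNA genes and may take in outer repeats, so its coverage is not directly comparable. Peaks covered 89.5%, 98.1% and 96.8% of the domain, against 46.0%, 67.7% and 32.1% of the rest of each stretch. The 4 peaks with tRNA genes there had folds of 9.05 to 13.5. Only 3 of these 23 genes were near a summit (exact interval 2.78 to 33.6%), against 14 of the 32 genes outside the domain (26.4 to 62.3%). The 23 shared the summits of those 4 peaks, whereas the 32 lay under more peaks, so the number of peaks limited both counts. The summits of the central peaks of centromeres I and II lay in the core, away from tRNA genes.

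In centromere I the 17325 bp central peak (3762456 to 3779780) held 6 genes in mirror order, alanine, glutamate and isoleucine on each side, and none was near its summit. Its summit had a pileup of 9084 over a background of 671 and a fold of 13.5, the 6th highest of the list, and stood 273 bp from the centre of the domain, 2505 bp from the nearest tRNA gene. The outermost genes, SPATRNAALA.04 and SPATRNAALA.05, lay 2552 and 2515 bp inside the edges of the peak. SPATRNAALA.04 was the farthest from any summit in this centromere, at 5787 bp.

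In centromere III the 17438 bp central peak (1090782 to 1108219), the widest of the list, held 11 genes and had its summit at SPCTRNALEU.12. The pileup was 9307 over a background of 772, a fold of 12.04. The outermost genes of this peak, SPCTRNAASP.06 and SPCTRNAASP.07, lay 1655 and 1662 bp inside its edges. SPCTRNALEU.13, the mirror copy of SPCTRNALEU.12, was the member farthest from a summit, at 6003 bp. SPCTRNAGLU.10 was the only central gene of the 23 without a mirror partner.

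In centromere II the central domain lay under 2 peaks that met between tRNA genes. The left one (1616747 to 1629540, 12794 bp) held SPBTRNAILE.06, SPBTRNAALA.09, SPBTRNAVAL.06 and, on the other side of the core, SPBTRNAVAL.07. Its summit was 778 bp from the centre, with a pileup of 7745 over a background of 790 and a fold of 9.79. After 217 bp the next peak (1629758 to 1634529, 4772 bp) held SPBTRNAALA.10 and SPBTRNAILE.07, 152 and 5 bp from its summit, with 5777 over 637 and a fold of 9.05. The left copies of these genes, SPBTRNAALA.09 and SPBTRNAILE.06, lay 2439 and 2292 bp from a summit.

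Many of the centromeric tRNA genes were exact copies of each other. The 22 paired central genes formed 11 mirror pairs of the same sequence on opposite strands. In 3 pairs 1 copy was near a summit, in 8 neither and in none both. Most pairs lay under a shared peak with 1 summit, which could not be near both copies. With 100 bp on each side, 34 of the 55 genes (61.8%) had an exact copy elsewhere, in every case within the centromeres, against 0 of 116 arm genes. Of these 34 genes 6 were near a summit (17.6%, 6.76 to 34.5), and of the 21 without such a copy 11 were (52.4%, 29.8 to 74.3). Most of the 34 lay under wide peaks with 1 summit each, so this split cannot be told apart from peak width. How the aligner placed fragments of identical copies is not given in the sources used here. Counting a summit at any identical copy raised the 17 genes to 21, adding SPBTRNAALA.08, SPBTRNAILE.06, SPBTRNAALA.09 and SPCTRNALEU.13.

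Outside the central domain, clusters of tRNA genes lay at both ends of centromere II and the left end of centromere III. The left cluster of centromere II held 12 genes in 4422 bp, from SPBTRNAASN.01 to SPBTRNAASP.05, under a peak of 7930 bp (1597873 to 1605802) that began 123 bp before the first gene and ran 3385 bp past the last. Its summit was at SPBTRNAASP.05 and 156 bp from the arginine gene SPBTRNAARG.06, with a pileup of 5426 over 717 and a fold of 7.56. SPBTRNAASN.01, the first gene of the stretch, was the farthest from a summit in centromere II, at 4347 bp. The right cluster held 9 genes in 3507 bp under a 3951 bp peak (1643618 to 1647568) that began 231 bp before SPBTRNATYR.03 and ended 213 bp past SPBTRNAARG.07. Its summit was 7 bp before SPBTRNAALA.11 and 154 bp from SPBTRNAILE.08, with 3649 over 585 and a fold of 6.23.

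The 2 clusters share a direct repeat of 3190 bp with 99.9% identity that holds 8 genes in the same order, tyrosine, leucine, glycine, lysine, isoleucine, alanine, valine and glutamate. No left copy was near a summit, and 2 right copies were, SPBTRNAILE.08 and SPBTRNAALA.11. Each cluster lay under 1 peak with 1 summit, and the left summit lay outside the repeat, so these counts do not compare the level at the copies. An alanine and a valine gene stood 660 bp apart at 5 places, 4 in centromere II and 1 at the left end of centromere III, and at the 4 in centromere II an isoleucine gene stood 73 bp from the alanine gene. A summit was near the isoleucine and alanine genes at 2 of these 4 places.

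At the left end of centromere III, 8 genes in 6132 bp lay under 5 separate peaks in place of a wide one, and 7 of the 8 were near a summit. The genes were farther apart than in centromere II, with a median gap of 767 bp against 298 and 340 bp in its left and right clusters. The peaks were 384 to 1180 bp wide. The first held SPCTRNAALA.12, 752 bp from its summit, and SPCTRNAVAL.12 and reached 2.93-fold. The next, at SPCTRNAARG.10 and SPCTRNASER.09, reached 4.05-fold with a pileup of 1346 over 331. The third, at SPCTRNAASP.05 and SPCTRNAARG.11, reached 4.39-fold with 1438 over 327. SPCTRNALEU.11 stood at 4.76-fold with 1796 over 377, and SPCTRNALYS.10 at 2.73-fold with 1417 over 518. The widths and folds of these 5 peaks overlapped those at arm tRNA genes, which ran from 219 to 3748 bp and from 1.65 to 9.62. Both arm maxima were of 1 peak, at SPATRNAVAL.04. The upper quartiles at the arm peaks were 422 bp and 3.28-fold, and most of the 5 peaks were above each.

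The other genes near the ends stood alone. SPCTRNALYS.11, on the right of centromere III, had a 2.75-fold peak with 1357 over 493, against 2.73-fold at its copy SPCTRNALYS.10 on the left, identical with 100 bp on each side. The last gene, SPCTRNAPHE.05, had a 4.60-fold peak with 1809 over 393. Its counterpart SPATRNAPHE.02 at the left end of centromere I had a 3.18-fold peak with 1514 over 476. Among the 12 genes beyond the outermost repeat of 1000 bp or more, 8 were near a summit, and among the 20 between there and the central domain 6 were. None of the 12 had an exact copy with flanks.

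By product, a summit was near 3 of 6 arginine genes, 2 of 7 alanine, 2 of 6 isoleucine, 2 of 5 leucine, 2 of 5 annotated as asparagine, 2 of 4 lysine, both phenylalanine, 1 of 7 valine and the only serine gene, and near none of 5 glutamate, 2 glycine, 2 threonine, 2 tyrosine and 1 methionine genes. Both genes counted as asparagine, SPBTRNAASP.05 and SPCTRNAASP.05, are among the 4 whose names say ASP. Identical arm genes are annotated as aspartate at SPATRNAASP.01, SPATRNAASP.02 and SPBTRNAASP.04, and as asparagine at SPCTRNAASP.08. The asparagine label of these 4 is thus contradicted by the label of most identical arm genes. The gene named ASN, SPBTRNAASN.01, was not near a summit. The 4 identical leucine genes differed in this, since SPCTRNALEU.12 was at a summit and SPBTRNALEU.06, SPBTRNALEU.07 and SPCTRNALEU.13 were not. The numbers are small, and genes of the same sequence are not independent of each other.

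The other annotated genes of the 3 stretches were also mostly under peaks. Of 132 such genes, 127 of them long non-coding RNAs, 115 (87.1%) overlapped a peak and 84 (63.6%) were near a summit. These genes are longer than tRNA genes, often overlap each other, and 3 of them overlap a tRNA gene.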

How the data were processed

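ChIP and input fragments were mapped with BWA 0.7.12 on ASM294v2, per the submitters' processing notes, and peaks were called with MACS 2.1.0.20150731, per the file headers, with a q-value cutoff of 0.05, 1 fragment kept per position (which removed 34.7% of ChIP and 10.4% of input fragments) and an effective genome size set at 1.87e+09. The 3 chromosomes hold 12.6 Mb. The authors' list gives pileup, a signal (fragment coverage at the summit after scaling), fold enrichment, a ratio over local background with a pseudocount of 1, and the deposited −log10 p-value and −log10 q-value. No pooling is recorded. The background was recovered as (pileup + 1) / fold - 1. As a check of that background, a Poisson −log10 p was computed for 577 peaks and was within 0.0034 of the deposited one.

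Genes and sequences came from RefSeq ASM294v3, a later build than the authors'. Peak coordinates are the authors', and those of genes are from RefSeq. No coordinates were converted. As a check, 105 of 116 arm tRNA genes and 12 of 55 centromeric ones had a summit within 100 bp, and 1 to 4 arm genes and 0 to 6 centromeric ones did with the annotation shifted by 500 to 5000 bp either way. The check is weaker for the centromeric genes. Repeats were found with blastn 2.17.0 of each centromere against itself (at least 1000 bp and 90% identity). Shares have exact (Clopper-Pearson) 95% intervals. Counting was tested on simulated peaks planted in tRNA genes, and all were recovered. The tools were scipy 1.17.1, pandas 2.3.3 and numpy 2.4.6 under Python 3.11.15, with figures from matplotlib 3.10.9. The members and lists were chosen with earlier results of these data known. Named were the members within 500 bp of a summit, the first and last gene of each centromere, the farthest from a summit, and those under wide peaks. Copies, repeat pairs and spacings were added after the data were seen.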

Additional observations from a re-analysis of the deposited data

How the results depend on the processing

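No paired analysis was possible because each group has 1 library. Of 48 values under other settings 42 were within 1.5 times the reported value. With the summit required inside the gene, 6 of the 55 centromeric genes remained counted, 1 of 23 in the central domain and 5 of 32 outside it, against 53 of 116 on the arms. Among the 21 members with no exact copy, a set chosen after the data were seen, 11 had a summit near. With peaks at or above the median fold alone, 30.8% of centromere III was covered, against 47.0% with all peaks. The median fold of the 14 peaks was 4.19 when no background below the genome mean was allowed. With repeats of at least 500 bp or 95% identity the counts of genes near a summit stayed at 3 in the central domain and 14 outside it. Reads and coverage profiles were not analysed here, so the level at each gene within a wide peak is unknown and fragments of identical copies could not be told apart.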

Other observations

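Mirror positions of the summits in the central domains were compared as values. In centromere I the central domain held 3 other summits, all of peaks without a tRNA gene. The 2.18-fold summit on the left lay at -12094 bp from the centre and the 2.12-fold one on the right at 12127 bp, so that each was 33 bp from the mirror position of the other. The 1.88-fold summit between the 2.12-fold one and the central peak, at 10979 bp, had its mirror position 1115 bp from the nearest summit. That position was inside the 2.18-fold peak, which ran from -14592 to -9496 bp. The 2 right peaks ran from 9892 to 11493 bp and from 11963 to 14615 bp, so similar stretches were covered on both sides. The central peak there reached 8.69 kb left and 8.64 kb right of the centre, and that of centromere III 8.72 kb on both sides. In centromere II the central peak reached 7.46 kb left and 5.33 kb right, where the split before SPBTRNAALA.10 had no counterpart at the mirror position, which lay inside the peak.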
